A study of Mus musculus with 6 samples.

Results

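The class II histone deacetylases examined here are the products of 5 mouse genes, Hdac4, Hdac5, Hdac7, Hdac9 and Hdac10, chosen by name out of 15765 protein-coding genes on the sequence that the data cover. A methylation peak was counted for a gene when its midpoint lay in the gene body or within 10 kb of either end, which gave 34 of 84111 peaks. The assay was MBD-seq, in which MBD2, a protein that binds methylated CpG, pulls down fragments for sequencing, and it was run on primary chondrocytes grown from knee articular cartilage of mice at postnatal day 3 to 5. The 3 control cultures carried the genotype Dnmt1 flox, and the 3 conditional knockout cultures (cKO) were Prx1-Cre;Dnmt1 flox/flox, so both groups carry a floxed allele of Dnmt1, the enzyme that copies CpG methylation onto newly made DNA strands. The Prx1 promoter drives Cre in limb mesenchyme, the labels do not say that controls carry Cre, and they do not give the number of animals behind a culture.

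The data are 1 list of peaks called on 3 merged datasets. Its authors titled it as methylation that is mediated by Dnmt1, but nothing in it says which group the merged datasets came from, or which libraries (input DNA, the other group or none) gave the background that the peaks were called against. A peak may thus stand for methylation as such or for enrichment of 1 group over the other, and these cannot be told apart here. No value belongs to a single culture, so control and cKO could not be compared, no spread between animals can be given, and per-sample depth is unknown. The values below are therefore descriptions of 1 list, with no test and no p-value. Intervals cover counting error only. The list holds enrichment of DNA and no expression, so the chondrocyte identity of the cultures was not checked against marker genes. It covers chromosomes 1 to 5 and 10 to 19 and part of chromosome 6, which hold all 5 genes. Hdac6, the remaining class II enzyme, lies on the X chromosome and was not analysed here.

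Histone deacetylases remove acetyl groups from lysines and mostly act in complexes that repress transcription. Hdac4, Hdac5, Hdac7 and Hdac9 form class IIa, enzymes with weak activity of their own that bind transcription factors such as the MEF2 and Runx proteins and recruit other repressors. Kinases of the salt-inducible, calmodulin-dependent and protein kinase D families phosphorylate them, whereupon they leave the nucleus. Hdac4 is the member best known in cartilage, where it restrains chondrocyte hypertrophy downstream of parathyroid hormone-related protein. Hdac10 belongs to class IIb and is a largely cytoplasmic enzyme that deacetylates polyamines.

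In the RefSeq gene table of GRCm38.p6, Hdac4 (gene 208727) spans chr1:91928779-92195702, a body of 266.9 kb. Hdac5 (gene 15184) spans chr11:102195747-102230172 (34.4 kb), Hdac7 (gene 56233) chr15:97792661-97844502 (51.8 kb) and Hdac9 (gene 79221) chr12:34047580-34917095 (869.5 kb). Hdac10 (gene 170787) spans chr15:89123303-89128700 and is the shortest at 5.40 kb. Hdac4, Hdac5, Hdac7 and Hdac9 all lie on the minus strand, so their 5′ ends are the higher coordinates. The table gives no exons or introns, so a peak is described only by its place along the body.

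RefSeq promoters of GRCm38.p6, each 250 bases before to 50 bases after a transcription start, matched 4 of the 5 genes with 8 starts in all. They are shown because MBD2 binds methylated CG dinucleotides, so the number of CG sets how much there is to capture at a start. CG dinucleotides are in capitals and all sequences run 5′ to 3′ on the minus strand. The first 3 are starts of Hdac4 (chr1:92180292-92180591), Hdac5 (chr11:102230123-102230422) and Hdac7 (chr15:97831446-97831745). Those of Hdac4 and Hdac7 are rich in CG, and that of Hdac5 is nearer the median of all promoters. The last is the outermost start of Hdac9 (chr12:34917046-34917345), which has no CG at all.
Hdac4: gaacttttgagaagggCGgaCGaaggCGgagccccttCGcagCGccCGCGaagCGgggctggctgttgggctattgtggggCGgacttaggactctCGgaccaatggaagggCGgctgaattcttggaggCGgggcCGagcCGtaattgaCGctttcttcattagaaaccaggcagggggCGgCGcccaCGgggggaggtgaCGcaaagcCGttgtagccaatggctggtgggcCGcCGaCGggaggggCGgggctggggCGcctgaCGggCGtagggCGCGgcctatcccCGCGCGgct
Hdac5: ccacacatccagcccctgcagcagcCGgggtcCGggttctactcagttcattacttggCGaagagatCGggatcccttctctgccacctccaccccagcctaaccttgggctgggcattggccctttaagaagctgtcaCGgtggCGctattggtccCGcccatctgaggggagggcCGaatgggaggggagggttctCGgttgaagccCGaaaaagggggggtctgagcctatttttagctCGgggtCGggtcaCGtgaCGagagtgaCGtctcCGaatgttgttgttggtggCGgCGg
Hdac7: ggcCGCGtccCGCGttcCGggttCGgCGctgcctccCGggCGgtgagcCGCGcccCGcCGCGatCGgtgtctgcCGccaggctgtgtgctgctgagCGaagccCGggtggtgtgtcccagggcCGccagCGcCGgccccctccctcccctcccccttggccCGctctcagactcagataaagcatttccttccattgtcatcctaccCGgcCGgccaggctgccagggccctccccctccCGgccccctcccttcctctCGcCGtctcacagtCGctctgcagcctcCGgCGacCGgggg
Hdac9: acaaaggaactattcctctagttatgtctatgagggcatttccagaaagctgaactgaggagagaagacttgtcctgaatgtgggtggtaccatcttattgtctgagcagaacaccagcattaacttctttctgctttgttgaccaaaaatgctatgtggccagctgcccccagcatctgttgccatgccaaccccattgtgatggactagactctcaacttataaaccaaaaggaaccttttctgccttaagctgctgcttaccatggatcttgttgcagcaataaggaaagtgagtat

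The Hdac4 start held 32 CG in its 300 bases, more than 86.3% of the 15397 promoters of covered protein-coding genes. Hdac5 had 18, against a median of 14 over all promoters (quartiles 4 and 25). At Hdac7, the start shown had 31 and another slightly further upstream had 35, whereas the 2 other starts of that gene had 5 and 6. The 2 Hdac9 starts had 0 and 3. The starts of the class therefore ranged from among the richest in CG to those with none. A GC box (GGGCGG, read on both strands), the element bound by Sp1-type factors, was found at the starts shown for Hdac4, Hdac5 and Hdac7, as in 48.0% of all promoters. The MEF2 consensus was searched for after the sequences had been seen, on both strands. Of the 8 promoters only that of Hdac5 held it, as did 368 of all 15397 promoters (2.39%). The GC box contains a CG and does not overlap the MEF2 match in Hdac5, and a match is not evidence of binding.

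None of the 8 starts had a peak midpoint within 1 kb, and over all promoters 6.88% had one. The nearest peak to the Hdac4 start was 40.5 kb away, on the upstream side, and 93.1% of all promoters had a nearer one. That start, the only one listed for Hdac4, lies inside the gene model. The 5′ end of the model has no listed promoter and was 25.1 kb from the same peak. Among the 344 promoters of genes within 20% of the length of Hdac4 the median distance was 14.1 kb, and 84.0% were nearer to a peak than the Hdac4 start. The Hdac5 start was 20.3 kb from its nearest peak, also upstream of the gene, farther than 81.8% of promoters of genes of its length. The starts of Hdac7 lay closer to peaks, at 3.38 to 9.92 kb, and those of Hdac9 lay at 4.47 and 21.4 kb. Distance did not follow CG number among the starts of the class, since the pair of CG-rich Hdac7 starts (4.09 and 4.37 kb) and a CG-poor Hdac9 start (4.47 kb) were about equally far from a peak. Over all promoters a peak within 1 kb was found at 3.01% of the 7639 starts with 15 or more CG, at 14.1% of those with 5 to 14 and at 7.46% of those with 0 to 4.

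**Figure D1:**
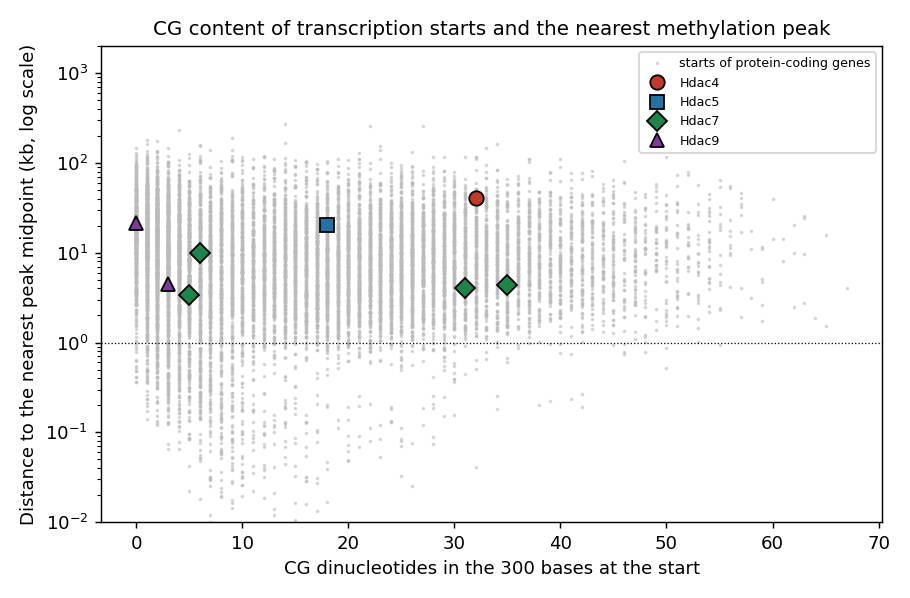
Each grey point is 1 transcription start of a protein-coding gene, placed by the CG dinucleotides in its 300 bases and the distance to the nearest peak midpoint (kb, log scale; the dotted line is 1 kb, and 13 starts lie below the axis). All 8 starts of Hdac4, Hdac5, Hdac7 and Hdac9 lie above the line. The farthest, at 40.5 kb, is the Hdac4 start, which lies inside the gene model.

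At least 1 peak lay in the body of 4 of the 5 genes, against 64.7% of all protein-coding genes, and in the body or within 10 kb of 5 of 5, against 81.7%. With 5 genes these shares are near the background. The genes differed among themselves in number and density. Hdac9 had 12 peaks, Hdac7 11, Hdac5 6, Hdac4 3 and Hdac10 2. Per 100 kb of body and flanks the order was Hdac7 with 15.3 peaks (95% exact Poisson interval 7.64 to 27.4), Hdac5 with 11.02 (4.05 to 24.0), Hdac10 with 7.87 (0.954 to 28.4), Hdac9 with 1.35 (0.697 to 2.36) and Hdac4 with 1.05 (0.216 to 3.06). The intervals of Hdac7, Hdac5 and Hdac10 overlap, as do those of Hdac9 and Hdac4. Those of Hdac7 and Hdac5 lie wholly above those of Hdac9 and Hdac4. All these intervals treat the peaks of a gene as independent, which neighbouring peaks are not, so they may be too narrow. Peak density falls with gene length across the genome, so each gene was set beside protein-coding genes within 20% of its own length.

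**Figure D2:**
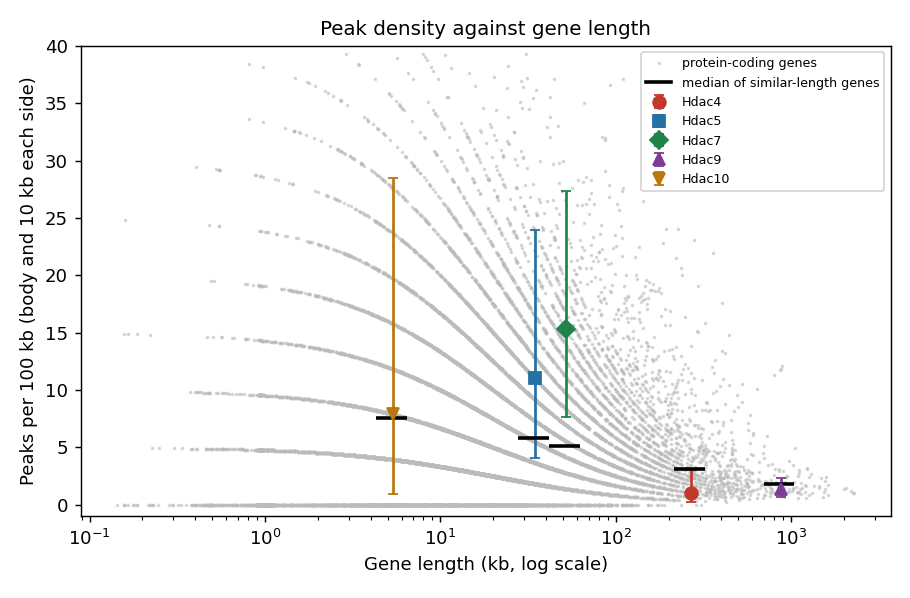
Peaks per 100 kb of body and 10 kb flanks against gene length (log scale), with grey points for protein-coding genes (33 lie above 40), coloured symbols for the 5 genes with 95% exact Poisson intervals, and black bars for the median of genes within 20% of the length. Hdac5 and Hdac7 sit above their bars at 5.85 and 5.14, Hdac4 below its bar at 3.10, and Hdac9 and Hdac10 near theirs.

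Hdac4 carried few peaks for its size. The median of 313 genes of its length was 3.10 peaks per 100 kb (quartiles 1.94 and 5.68), so Hdac4 was at 0.337 of it, and 32 of those genes (10.2%) had a lower density. At least 1 peak in the body was found in 99.0% of these genes. The share with a lower density was 38.0% when the count was limited to peaks at or above the median fold and 37.4% for those at or above the median −log10 q, since all 3 Hdac4 peaks pass both limits. The 5 genes closest to Hdac4 in length had 10 to 30 peaks in the body. Srgap1, a signalling protein of the Slit–Robo pathway, had 30, and Phactr2, an actin and phosphatase regulator, had 10.

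All 3 Hdac4 peaks lay in the last 20% of the gene. The peak nearest the 3′ end (chr1:91928646-91929368, 723 bp) straddled that end of the gene model, with a fold enrichment of 21.3 over the peak caller's background, as the authors' list gives it. The next (chr1:91932991-91933398, 408 bp) was 4.42 kb inside the gene and had a fold of 19.4. The strongest (chr1:91981913-91982408, 496 bp) was 53.4 kb from the 3′ end with a fold of 30.9, above 90.4% of all peaks. The first 213.5 kb of the gene, 80.001% of its length, held no peak. Together with 25.1 kb of upstream sequence this made an interval of 238.6 kb between neighbouring peaks, and 352 of the 83952 such intervals in the list (0.419%) were longer. The median interval was 9.03 kb. This share counts each interval once, whereas a long interval is more likely than a short one to hold a given gene end. It thus makes the interval look rarer than it is along the sequence. It also partly restates the low Hdac4 count, and peak-free runs in genes of similar length were not compared. The long 5′ part of Hdac4, which holds the CG-rich start shown above, thus had no called peak at the threshold of the list. A missing peak does not show that the DNA is unmethylated, because MBD2 capture needs several methylated CG close together and the list starts at a −log10 q of 20.004.

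Hdac9, the longest gene of the class and like Hdac4 a repressor of MEF2 targets, had a low density per 100 kb that lay between the quartiles of its length. Its 1.35 peaks per 100 kb compare with a median of 1.81 over 58 genes of its length (quartiles 1.25 and 2.85), of which 16 (27.6%) were lower and 100% had a peak in the body. Counting only peaks at the lowest background, explained below, this share was 51.7%, and at or above the median −log10 q it was 6.90%. Of the 5 genes closest in length, the neuronal genes Grm8, a glutamate receptor, and Pcdh9, an adhesion protein, had 12 and 11 body peaks, and Dpyd, a pyrimidine-degrading enzyme, had 9. The other two, Gm38666 and Gm38667, are overlapping models on chromosome 18 with 104 and 102.

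The 12 Hdac9 peaks were spread along the gene rather than gathered at 1 end. The first lay 42.8 kb from the 5′ end (chr12:34874066-34874450, fold 14.5), inside the lncRNA model Gm40875 as well, and the last 19.8 kb from the 3′ end. The 3 longest runs without a peak measured 143.5, 140.6 and 131.4 kb, each 15.1% to 16.5% of the body, against 80.001% for the longest run in Hdac4. The strongest peak of the whole class was in Hdac9, 35.0 kb from the 3′ end (chr12:34082293-34082877, 585 bp), with a fold of 38.9, above 97.3% of all peaks. A further peak with a fold of 30.0 (chr12:34290754-34291284) also lay in the pseudogene Gm18025.

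Hdac7, a class IIa repressor known from the blood vessel wall and from developing T cells, had the highest density. Its 15.3 peaks per 100 kb were 2.98 times the median of 1345 genes of its length (5.14, quartiles 2.69 and 9.58), and 89.7% of those genes had a lower density; 85.4% had a peak in the body. Among the 5 closest in length, Pkd2, the polycystin channel, had 8 body peaks, Ubash3a, a T cell signalling protein, had 5, and the others had 1 to 3. The Hdac7 peaks were also close together. Within 20 kb lay 9 of the 10 body peaks, and 3.42% of genes of its length held as many in such a stretch (median 2). Those genes mostly had fewer peaks per 100 kb, so this share reflects the number of Hdac7 peaks as well as their spacing.

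The 9 gathered Hdac7 peaks ran from 1.196 to 18.8 kb from the 3′ end. Their folds went from 6.92 to 35.0, the highest at chr15:97797945-97798619 (675 bp), 5.62 kb from the 3′ end. The widest peak of the class, chr15:97808417-97809654 with 1238 bp, had a fold of 34.6, and a second wide one, chr15:97800110-97801326 with 1217 bp, had 18.0. They are wider than 98.1% and 97.97% of all peaks. The 10th body peak (chr15:97827159-97827642, fold 28.8) lay apart, 17.1 kb from the 5′ end and 4.09 kb downstream of the CG-rich start shown. The weakest peak, with a fold of 6.78, was the only one in the flanks. It lay 9.92 kb upstream (chr15:97854353-97854482) in the lncRNA model Gm33690, just inside the 10 kb limit, and the next peak on that side was 13.0 kb from the gene with a fold of 25.2.

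Hdac5, a class IIa repressor studied mainly in heart and skeletal muscle, also had its body peaks in 1 stretch nearer the 3′ end. Its 11.02 peaks per 100 kb were 1.88 times the median of 1660 genes of its length (5.85, quartiles 2.03 and 10.4), with 76.9% lower and 79.0% having a peak in the body. The 5 genes closest in length had 0 to 6 body peaks. All 5 Hdac5 body peaks fell within 11.01 kb of the 3′ end, and 16.9% of genes of that length held as many within 20 kb. That share too reflects number as well as spacing, and 20 kb is a large part of a 34.4 kb body.

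The strongest Hdac5 peak (chr11:102202186-102202900, 715 bp) lay 6.80 kb from the 3′ end with a fold of 32.4, above 92.1% of all peaks. The widest (chr11:102206375-102207135, 761 bp, fold 16.8) was the one nearest the 5′ end, at 23.4 kb from it. Between them lay peaks with folds of 21.7 and 9.22, the latter the weakest of the gene. The peak at the 3′ end itself (chr11:102195912-102196359, 0.389 kb inside) had a fold of 17.1. The 6th peak (chr11:102192402-102192759, fold 11.9) was in the flank, inside the neighbouring gene G6pc3, a glucose-6-phosphatase subunit, so it cannot be credited to Hdac5 alone. The first 23.4 kb of the gene held none.

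Hdac10 had no peak in its body, as in 56.3% of 1119 genes of its length (43.7% had one), and 4 of the 5 genes closest in length had none within 10 kb either. Its 2 flank peaks, 2.41 and 3.88 kb from the higher-coordinate end (chr15:89131076-89131150 and chr15:89132527-89132628), were 75 and 102 bp wide, and both had a fold of 6.10 and a −log10 q of 20.8, close to the lowest value in the list. Both lie in Mapk12, a stress-activated protein kinase, and in the lncRNA model Gm46530. The density of 7.87 peaks per 100 kb, above 58.2% of genes of its length, rests on these weak peaks, and with the body alone or with the peaks at or above the median fold the count was 0. Nearest outside the 10 kb limit was a peak 17.3 kb from the gene with a fold of 12.6. For the class as a whole, the nearest peaks beyond that limit lay 13.0 to 41.1 kb from a gene.

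**Figure D3:**
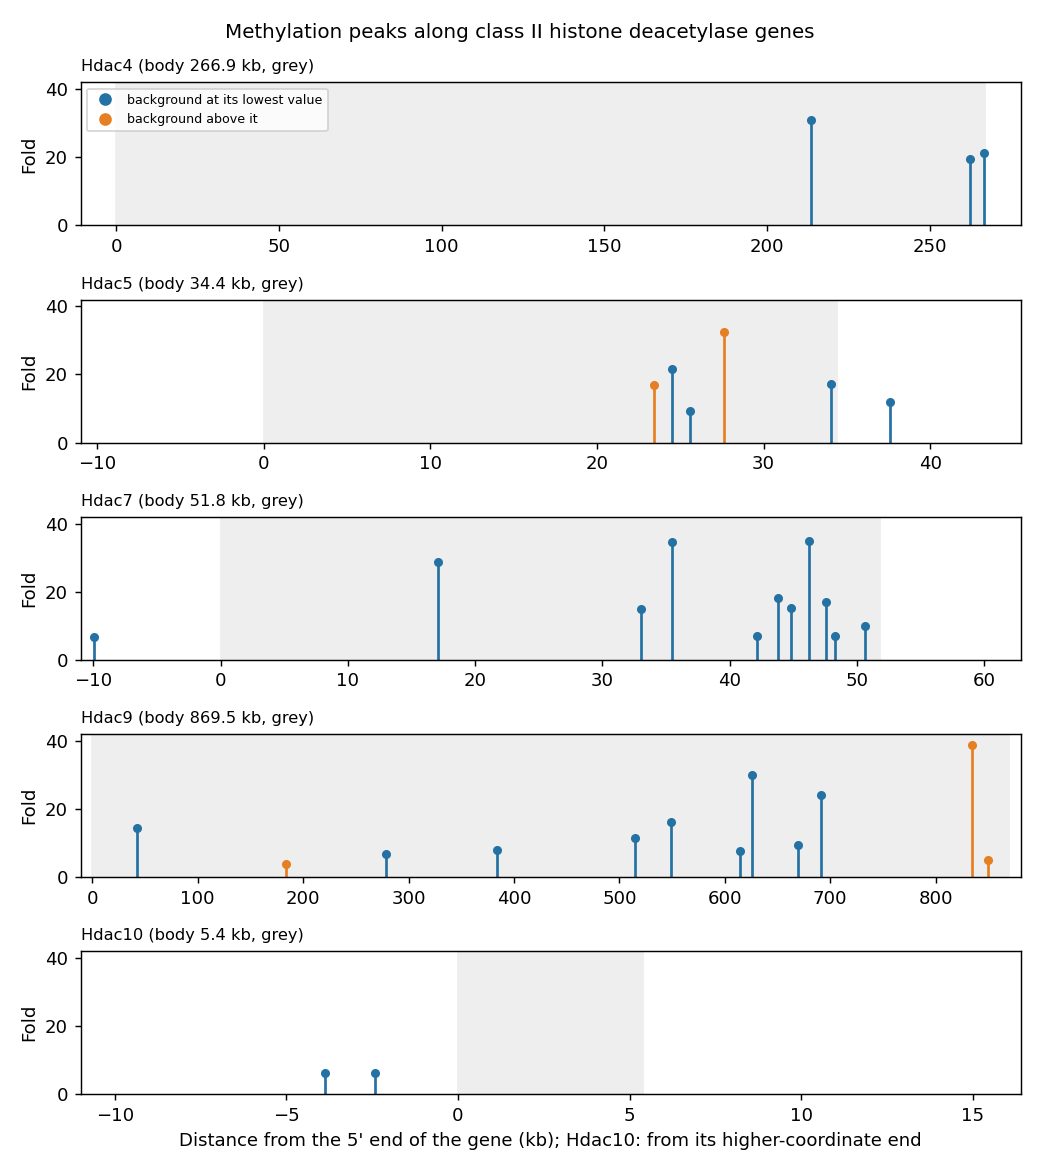
Peaks along each gene from its 5′ end (kb; for Hdac10 from the higher-coordinate end), with the body in grey and stem height as fold enrichment; blue peaks stand on the lowest background and orange ones on a higher one. The first 213.5 kb of Hdac4 hold no peak, those of Hdac5 and all but 1 in the body of Hdac7 stand nearer the 3′ end, and those of Hdac9 are spread along the body.

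The body peaks of Hdac4, Hdac5 and Hdac7 lay mostly nearer the 3′ end, and those of Hdac9 less so. The genes were chosen by name, but with earlier results of these data known. Of the 30 body peaks of the 4 class IIa genes, 25 (83.3%) lay beyond the midpoint, nearer the 3′ end, against 61.8% of the 35568 body peaks of protein-coding genes of known strand. By gene they were 3 of 3 in Hdac4, 5 of 5 in Hdac5, 9 of 10 in Hdac7 and 8 of 12 in Hdac9. In the first 25% of the body there were 2 peaks, both in Hdac9 (6.67%, against 16.4% over all genes), and in the last 25% there were 16 (53.3%, against 35.7%). Genes of similar length gave 57.5% (Hdac9) to 63.7% (Hdac5) beyond the midpoint. Among the 1014 genes with exactly 3 body peaks, like Hdac4, 26.9% had all of them beyond the midpoint. Among the 550 with exactly 5, like Hdac5, it was 11.1%. Neighbouring peaks of a gene are not independent, and 15 of the 30 come from Hdac5 and Hdac7, whose peaks are gathered in 1 stretch each.

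**Figure D4:**
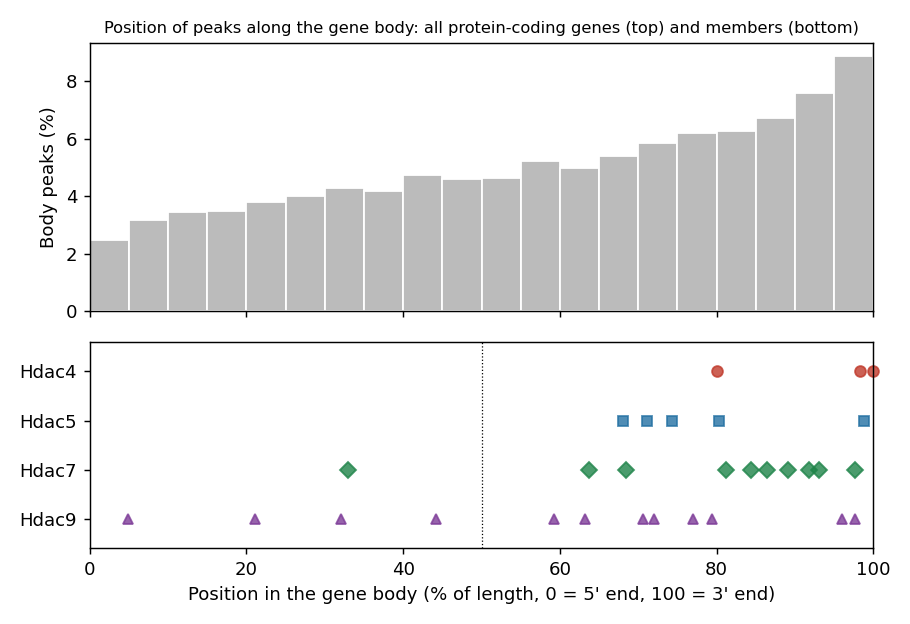
Top, share of the 35568 body peaks of protein-coding genes in 20 equal sections from the 5′ end (0) to the 3′ end (100% of body length); bottom, each symbol is 1 body peak and the dotted line is the midpoint. The background rises towards the 3′ end, and 25 of the 30 symbols lie to the right of the line.

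The median fold and width of the peaks of the class were close to those of the list. The median fold of the 34 peaks was 15.1 (95% interval of the median 9.22 to 19.4, from the binomial distribution of ranks), against 13.2 over all peaks and 13.7 over the 44414 peaks in protein-coding bodies, and both values lie inside that interval. A fold of at least 20 was found in 10 of 34 (29.4%, against 28.9% of all peaks). The median width was 410 bp (interval 350 to 585), against 415 bp over all peaks. Both intervals treat the 34 peaks as independent, which neighbouring peaks of a gene are not. By gene, the median fold was 21.3 in Hdac4, 16.9 in Hdac5, 15.3 in Hdac7, 10.4 in Hdac9 and 6.10 in Hdac10. Hdac4 thus had the fewest peaks of the class IIa genes and no weak ones, its lowest fold being 19.4, whereas Hdac9 and Hdac7 ranged down to 3.69 and 6.78. A peak was wider than 1 kb in 3 of 34 cases (8.82%), 2 in Hdac7 and 1 in Hdac9, against 3.92% of all peaks and 4.10% of those in protein-coding bodies.

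**Figure D5:**
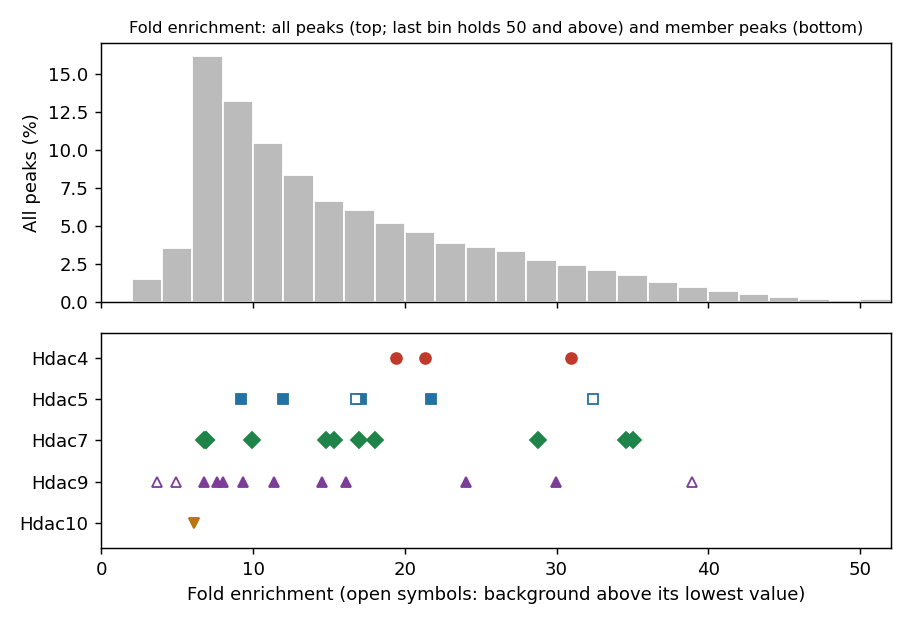
Top, share of all 84111 peaks by fold enrichment in steps of 2; bottom, each symbol is 1 peak of a class II gene, open where the background is above its lowest value (the 2 Hdac10 peaks coincide at 6.10). Hdac4 peaks lie at 19.4 to 30.9, while Hdac9 spans 3.69 to 38.9.

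The fold of a peak combines the reads piled up at it and a background, and both were recovered from the fold and p-value of each peak. A lowest background of 6.37 scaled reads stood behind 29 of the 34 peaks (85.3%, against 74.98% of all peaks and 85.1% of those in protein-coding bodies), so 5 were above it, against 25.02% of the list. As MACS2 works, a value shared by most peaks would be its genome-wide average, so at these peaks the local level of the background set is not known, and neither is what that set was. All 3 Hdac4, all 11 Hdac7 and both Hdac10 peaks were at it. Pileups were 142 to 227 reads in Hdac4, 49 to 257 in Hdac7 and 44 in Hdac10. In Hdac5 the strongest and the widest peak stood slightly above it, at 7.89 and 6.93 reads under pileups of 287 and 132.

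A pair of Hdac9 peaks differed in kind from the other 32. The one 19.8 kb from the 3′ end (chr12:34066859-34067910, 1052 bp) had a pileup of 519 reads, the highest of the class, over a background of 104.7, a fold of 4.92. The one 183.4 kb from the 5′ end (chr12:34733339-34733979, 641 bp) had 410 reads over 110.5, a fold of 3.69, the lowest of the class. A higher background was found in 1.93% and 1.65% of all peaks. They thus combined the largest pileups of the gene with its lowest folds. The strongest Hdac9 peak, with 317 reads over 7.17, was only slightly above the lowest background.

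The other deacetylases and the known partners of class IIa enzymes were then counted in the same way. Of the other histone deacetylases 3 of 6 were on covered sequence, and all had a peak in the body or flanks (81.7% of all protein-coding genes did). These class I enzymes, catalytic subunits of corepressor complexes, had 4.30 (Hdac1), 2.10 (Hdac2) and 7.89 (Hdac3) peaks per 100 kb, with 37.3%, 21.5% and 56.1% of genes of their length lower. Each had 1 peak in the body. Of the sirtuins, the NAD-dependent class III deacetylases, 5 of 7 were covered and all had a peak, with a median of 20.1 per 100 kb. Sirt5, Sirt6 and Sirt7 had 20.1, 23.1 and 22.5, above 95.01%, 93.8% and 93.7% of genes of their length, against 89.7% for Hdac7. Sirt1 had 2.50.

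Of 30 partners and regulators, 21 were covered. Of these, 19 had a peak (90.5%, against 81.7% of all protein-coding genes, a share that is higher among long genes). The covered genes had a median of 4.33 per 100 kb against 4.82 over all protein-coding genes. These medians were not matched for gene length, and density falls with length. Among the transcription factors that class IIa enzymes repress, Runx2, the driver of hypertrophy and bone formation, had 6 peaks (1.77 per 100 kb, above 28.5% of genes of its length). Mef2c had 4 (2.19, above 25.6%) and Mef2d 2 (3.99, above 36.2%). Mef2a and Mef2b were not analysed here. Ncor1, a corepressor that class IIa enzymes bring to their targets, had 7 (4.33, above 50.8%). The division of the list into kinases, adaptors and transcription factors was not planned. Of the 13 kinases listed as sending these enzymes out of the nucleus, 9 were covered. All 9 had a peak, against 81.7% of all protein-coding genes, and 8 were above the median of their length. Sik1 (22.2 per 100 kb), Camk2a (15.7) and Camk2g (15.1) were above 90.6% to 93.9% of genes of their length, Camk2b above 85.4%, Camk1d above 81.5%, Prkd3 above 67.9%, Camk4 above 52.1%, Prkd1 above 50.6% and Camk2d above 38.0%. Of the 6 Ywha adaptor genes, whose products hold phosphorylated class IIa enzymes in the cytoplasm, 4 had a peak. Over all protein-coding genes the share was 81.7%. Ywhab had 6 (above 81.8% of genes of its length), Ywhag 4 (above 63.0%), Ywhaq and Ywhaz 1 each, and Ywhae and Ywhah none. Pthlh, Pth1r, Sik2 and Sik3 were also among the 9 genes not analysed here.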

How the data were processed

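MBD-seq was done on 3 control and 3 cKO cultures. The processing notes of the submitters name fastp, Bowtie2, MACS2 and the build mm10 (GRCm38), without versions or order. Per the peak names, 3 datasets were merged with Samtools before calling. The authors deposited 1 narrowPeak-like list: a fold enrichment (ratio over the caller's background), −log10 p and −log10 q values, a score (10 times the −log10 q, cut to a whole number), and positions. The lowest −log10 q was 20.004; 1 incomplete last line was left out. No column holds values of a sample, so the planned test of control against cKO and its alternatives were not run.

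Peaks were placed by midpoint in RefSeq genes of GRCm38.p6 (Python 3.11.15, pandas 2.3.3, scipy 1.17.1), beyond the first 3 Mb of a chromosome and up to its last peak. Pileup and background were solved from fold and p-value as MACS2 defines them, and 99.97% of peaks matched a whole-number pileup within 1% of the spacing of −log10 p between whole pileups. Counting and recovery were tested on simulated data. Strand came from the RefSeq promoter table, which matched 12543 of 15765 genes. Named were all 5 genes, their strongest, weakest, widest and end-nearest peaks, other genes holding them, the 3 longest peak-free runs of Hdac4 and Hdac9, and the 5 genes closest in length. The genes and lists were chosen with earlier results of these data known; the count within 20 kb and the motifs were chosen after seeing the peaks and promoters. In all, 12 alternatives were tried. Some genes that these rules name are not reported here.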

Additional observations from a re-analysis of the deposited data

How the results depend on the processing

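No paired analysis was possible because no peak has values by culture, and leaving out replicates was not possible either. Depth per sample is unknown, and the threshold of the list limits what a missing peak can show. Below, "lower share" is the percentage of similar-length genes with fewer peaks per 100 kb. The lower share stayed on the same side of 50% for Hdac4, Hdac5 and Hdac7 in all alternatives except that for Hdac7 with peaks above the lowest background only; for Hdac9 and Hdac10 it did not. What caused each change was not tested.

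Peaks at or above the median −log10 q numbered 16 in the 5 windows (median fold 22.9, width 610.5 bp), with 0 per 100 kb for Hdac10, 6.96 for Hdac7 and 0.450 for Hdac9; lower shares were 37.4% (Hdac4), 86.4% (Hdac5), 87.7% (Hdac7), 6.90% (Hdac9) and 0% (Hdac10). Peaks at or above the median fold numbered 19 (median fold 21.3), with 0 per 100 kb for Hdac10 and 0.562 for Hdac9; lower shares were 38.0%, 82.2%, 91.7%, 41.4% and 0% in the same order. Peaks at the lowest background gave 23.3%, 64.8%, 91.9%, 51.7% and 63.2%. Those above it numbered 5 (median width 715 bp), with 0 per 100 kb for Hdac4, Hdac7 and Hdac10, 3.67 for Hdac5 and 0.337 for Hdac9, and lower shares of 0%, 93.3%, 0%, 13.8% and 0%. The values of 0% are ties: 24.0% (Hdac4), 67.8% (Hdac7) and 82.3% (Hdac10) of those genes also had none, as had 45.8% and 42.4% for Hdac10 under the limits on −log10 q and fold, and 56.3% with the body alone.

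The body alone gave lower shares of 81.1% (Hdac5), 91.7% (Hdac7) and 0% (Hdac10, 0 peaks per 100 kb). Flanks of 5 kb gave 83.9% (Hdac5) and 73.1% (Hdac10), and flanks of 20 kb 14.4% (Hdac4), 62.6% (Hdac5) and 50.8% (Hdac10). Merging peaks within 500 bp gave 72.3% (Hdac5) and 86.3% (Hdac7). All genes as peers gave 81.6% (Hdac5), 92.1% (Hdac7) and 63.8% (Hdac10). Placing peaks by summit, counting any overlap of at least 1 bp and taking genes within 50% of the length moved no value beyond its interval.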
